A study of Mus musculus with 16 samples.

Results

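CX3CR1+ macrophages and neutrophils of day 1 after surgery are compared here, in 4 of the 16 bulk RNA-seq libraries of the series. They were chosen by the population and the day named in the labels, with 2 libraries for each population. The mice were wild-type C57BL/6 males that underwent anterior cruciate ligament reconstruction (ACLR), in which a tendon graft is drawn through tunnels drilled in bone, and the cells came from the interface tissue around the graft. CX3CR1+ macrophages were sorted as live CD45+ cells without lineage markers or Ly6G that carried CD11b, F4/80 and CX3CR1 and lacked CD9. Neutrophils were sorted as live CD45+ cells without lineage markers that carried Ly6G and Ly6C by the labels, and the methods of the study add CD11b to this gate. The excluded lineage markers were B220, CD3e and NK1.1 of lymphocytes, Ter119 of erythroid cells, and CD34 and c-kit of progenitors. Each library was a pool of cells from several mice, all of them operated, so the spread given below is that between pools, and no unoperated tissue enters the comparison.

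Neutrophils leave the bone marrow with their granules already filled, and transcription of granule genes belongs largely to their precursors. In injured tissue they are short-lived, rely on glycolysis and secrete cytokines and chemokines. CX3CR1 is the receptor of fractalkine, and CX3CR1+ CCR2+ cells are typically monocytes and the macrophages that derive from them, which take up debris, process it in lysosomes and present peptides on MHC class II.

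Levels are given as CPM, the counts of a gene relative to the total of its library, scaled with TMM factors that correct for the composition of each library. They serve to compare a gene between libraries and not genes with each other, since they are not divided by gene length. Differences, with their standard errors (SE), are log2 fold changes of CX3CR1+ macrophages minus neutrophils, so that positive values are higher in CX3CR1+ macrophages. A gene was called differentially expressed (DEG) when its adjusted p was under 0.05 and its level differed at least by 1 on the log2 scale. Adjusted p values come from the quasi-likelihood test of edgeR, with the Benjamini-Hochberg procedure over 11998 genes. The total counts were 19814119 and 17440228 in the libraries of CX3CR1+ macrophages and 17789819 and 14933365 in those of neutrophils. The TMM factors were 1.153 and 1.101 in CX3CR1+ macrophages and 0.752 and 0.766 in neutrophils. Mitochondrially encoded transcripts took 11.6% and 14.6% of the counts in CX3CR1+ macrophages and 6.51% and 4.88% in neutrophils, and their part in the results below was not tested. The log2 CPM of the libraries correlated across genes at 0.982 within CX3CR1+ macrophages, at 0.976 within neutrophils and at 0.727 to 0.764 between them, although genes are not independent replicates.

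The antigens of the sort gave a check of the labels, and are no finding. Ly6g, the neutrophil antigen, had 2 and 1 counts in CX3CR1+ macrophages and 1667 and 931 counts in neutrophils, a ratio of 1467 with a counting interval of 502 to 7120. Cx3cr1 stood at 133 and 147 CPM in CX3CR1+ macrophages and at 8.22 and 9.80 CPM in neutrophils. Adgre1, which encodes F4/80, stood at 170 and 184 CPM against 41.2 and 43.5 CPM. Cd9, absent by gate from CX3CR1+ macrophages, was at 18.4 and 21.0 CPM there and at 676 and 673 CPM in neutrophils, which were not gated on it. Of the antigens that did not separate the gates, Ly6c2 was not a DEG (log2 fold change -0.25), and Itgam, the gene of CD11b, was lower in CX3CR1+ macrophages by a log2 fold change of -1.76. Exons of a readthrough gene cover 68.7% of those of Itgam, and Ly6c2 and Ly6g belong to a family of similar genes, so counting may have split their reads. The libraries thus matched their labels.

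Of the 11998 genes, 6113 were DEGs (51%), of which 3227 (26.9%) were higher in CX3CR1+ macrophages and 2886 (24.1%) in neutrophils. The CPM of the 2 populations did not overlap for 10101 genes (84.2%). Over the tested genes the log2 fold changes had a median of 0.00. With scaling by library size alone it shifted to 0.57, and the DEGs split into 4598 higher in CX3CR1+ macrophages and 1758 higher in neutrophils. With upper quartile factors it shifted to 0.28, and the DEGs split into 3816 and 2262. Directions below are therefore relative to the TMM scaling. The counts of each gene list below are to be read beside the shares of all tested genes, 26.9% higher in CX3CR1+ macrophages and 24.1% higher in neutrophils.

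The sides differed in the size of their folds. A log2 difference of 5 or more was reached by 323 of the genes higher in neutrophils and by 53 of those higher in CX3CR1+ macrophages. Both libraries of the lower population had 3 counts or fewer for 191 of the former and 120 of the latter. Among the 12 well-detected genes with the largest folds on each side, the level in neutrophils was 3.03% to 4.21% of that in CX3CR1+ macrophages, whereas the level in CX3CR1+ macrophages was 0.0448% to 0.522% of that in neutrophils. These genes were chosen by their folds, so the shares describe them and test nothing.

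**Figure D1:**
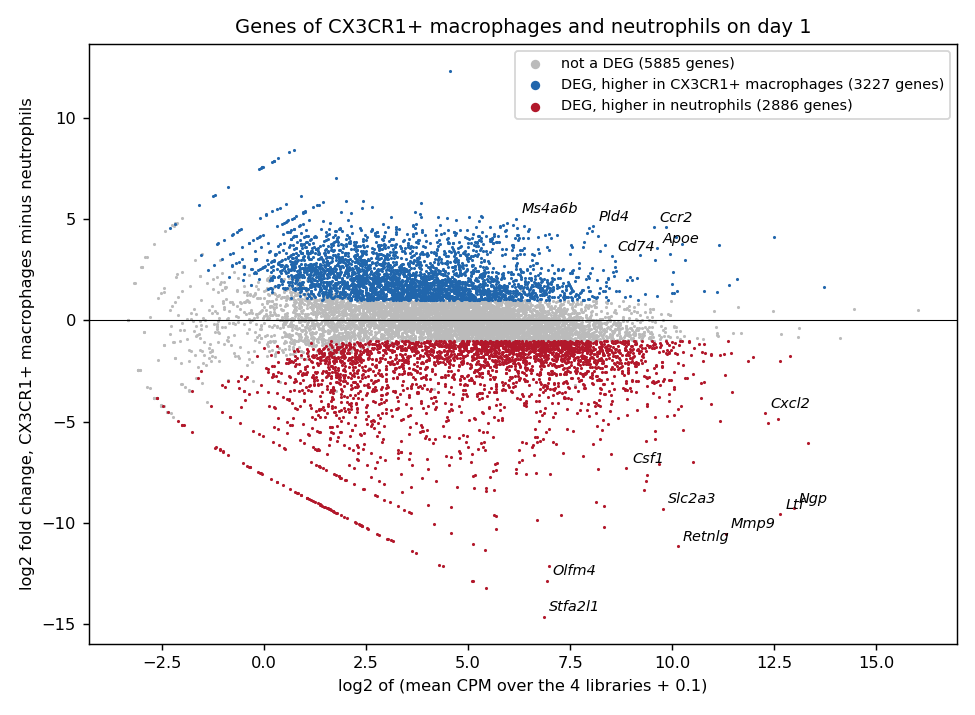
Difference between CX3CR1+ macrophages and neutrophils on day 1 (log2 fold change, vertical axis) against the mean level over the 4 libraries (log2 of CPM + 0.1, horizontal axis), 1 point for each of 11998 genes. Blue points are the 3227 DEGs higher in CX3CR1+ macrophages and red points the 2886 DEGs higher in neutrophils. The red points reach much larger folds at high levels than the blue ones, and the oblique rows of points at the left are genes with few counts in 1 population.

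A few promoter sequences are shown before the values, as text to read beside the groups below. They are from RefSeq on GRCm38.p6, cover the 250 bases before a start site, and are written 5′ to 3′ on the strand of the gene. They were picked because they held the motif and overlapped no annotated exon. Retnlg, Mmp8 and Slpi stand for secreted products higher in neutrophils, with matches to TTGCNNAA, letters bound by C/EBP factors, in capitals.
Retnlg (chr16:48872358-48872607, plus strand): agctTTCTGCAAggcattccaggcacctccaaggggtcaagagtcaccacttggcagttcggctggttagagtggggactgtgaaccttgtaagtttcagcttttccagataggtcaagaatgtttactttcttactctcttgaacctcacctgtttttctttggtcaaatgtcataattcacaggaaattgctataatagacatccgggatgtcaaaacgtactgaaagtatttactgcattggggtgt
Mmp8 (chr9:7558179-7558428, plus strand): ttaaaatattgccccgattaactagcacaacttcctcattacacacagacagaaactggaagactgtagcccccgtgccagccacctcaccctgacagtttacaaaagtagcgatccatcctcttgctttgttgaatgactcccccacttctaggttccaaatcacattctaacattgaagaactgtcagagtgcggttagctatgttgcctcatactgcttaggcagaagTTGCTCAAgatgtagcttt
Slpi (chr2:164356508-164356757, minus strand): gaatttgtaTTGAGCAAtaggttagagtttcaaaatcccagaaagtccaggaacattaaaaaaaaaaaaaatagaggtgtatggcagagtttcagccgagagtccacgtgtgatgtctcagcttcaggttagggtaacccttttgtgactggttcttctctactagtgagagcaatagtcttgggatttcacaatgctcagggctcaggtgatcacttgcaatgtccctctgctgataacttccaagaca

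Pgk1 and Hk2 stand for the glycolysis genes, with matches to ACGTG, the core of a hypoxia response element, in capitals.
Pgk1 (chrX:106186850-106187099, plus strand): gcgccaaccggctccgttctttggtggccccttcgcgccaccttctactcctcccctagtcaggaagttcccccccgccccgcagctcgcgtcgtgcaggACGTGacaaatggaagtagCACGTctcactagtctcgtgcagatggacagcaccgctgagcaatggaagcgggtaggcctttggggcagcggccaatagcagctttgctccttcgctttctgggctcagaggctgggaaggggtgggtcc
Hk2 (chr6:82774455-82774704, minus strand): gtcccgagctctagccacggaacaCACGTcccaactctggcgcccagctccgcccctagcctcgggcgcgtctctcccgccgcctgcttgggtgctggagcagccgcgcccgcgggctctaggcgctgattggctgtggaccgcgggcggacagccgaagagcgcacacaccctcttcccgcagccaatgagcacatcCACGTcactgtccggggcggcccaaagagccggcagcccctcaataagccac

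Fcgr1 and C1qb stand for genes higher in CX3CR1+ macrophages, with matches to AGGAAGT, letters bound by PU.1, in capitals.
Fcgr1 (chr3:96293970-96294219, minus strand): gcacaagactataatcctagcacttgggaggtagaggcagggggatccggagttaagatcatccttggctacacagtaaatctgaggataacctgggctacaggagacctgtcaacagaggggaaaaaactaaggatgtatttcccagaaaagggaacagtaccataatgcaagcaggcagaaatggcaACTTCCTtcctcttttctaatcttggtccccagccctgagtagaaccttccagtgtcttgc
C1qb (chr4:136886201-136886450, minus strand): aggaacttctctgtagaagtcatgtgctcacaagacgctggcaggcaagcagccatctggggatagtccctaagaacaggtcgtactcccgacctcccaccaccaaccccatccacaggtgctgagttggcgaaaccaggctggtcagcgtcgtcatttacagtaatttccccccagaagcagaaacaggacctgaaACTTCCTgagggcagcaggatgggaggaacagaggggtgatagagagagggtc

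All motifs were searched on both strands in 1 window per gene, and matches are letters and not shown sites of binding. The C/EBP letters were in 9.55% of all 27025 windows, in 7.72% of those of tested genes, in 8.37% of those of DEGs higher in neutrophils and in 7.33% of those of DEGs higher in CX3CR1+ macrophages. They were in 6 of the 20 windows of granule protein genes. The PU.1 letters were in 7.80% of all windows, in 8.26% of those of tested genes, in 9.60% of those of DEGs higher in neutrophils and in 8.04% of those of DEGs higher in CX3CR1+ macrophages. They were in 8 of the 20 windows of granule protein genes, and in 3 of 19 of receptors and other markers of mononuclear phagocytes. ACGTG was in 16.6% of all windows, in 22.4% of those of tested genes and in 8 of the 18 windows of glycolysis genes. The shares of the sides are given as a description only.

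Most granule protein genes were higher in neutrophils. Of 24 granule protein genes tested, 17 were higher in neutrophils, 1 was higher in CX3CR1+ macrophages and 6 were not DEGs, and their median log2 fold change was -4.21. Ltf encodes lactoferrin, an iron-binding protein of specific granules, and lies on chromosome 9 of mm10 from 111019271 to 111042767. It stood at 16134 and 9386 CPM in neutrophils and at 8.05 and 25.8 CPM in CX3CR1+ macrophages. Its log2 fold change was -9.57 (SE 0.73, adjusted p = 2.3e-08). Ngp, another product of specific granules, stood at 20480 and 11596 CPM against 20.3 and 31.7 CPM, a log2 fold change of -9.27. Camp, the gene of the antimicrobial peptide cathelicidin, stood at 1693 and 938 CPM against 3.90 and 6.93 CPM. The populations were far apart for all of these, and the first neutrophil library was the higher of the pair each time. Mmp9, the gelatinase of tertiary granules, stood at 6028 and 4116 CPM against 0.919 and 6.04 CPM, with a log2 fold change of -10.55 (SE 0.68, adjusted p = 4.3e-09). Mmp8, a collagenase, stood at 3755 and 2468 CPM against 218 and 219 CPM. Lcn2, a siderophore-binding protein, was at 13965 and 9889 CPM against 428 and 384 CPM. None of these genes overlapped between the populations.

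Of the 6 granule genes that were not DEGs, Mpo and Elane belong to primary granules. Mpo, which encodes myeloperoxidase, stood at 84.7 and 58.1 CPM in CX3CR1+ macrophages and at 113 and 53.5 CPM in neutrophils. Elane, the gene of neutrophil elastase, stood at 35.7 and 19.8 CPM against 39.4 and 19.6 CPM. The populations overlapped for both, with log2 fold changes of -0.23 and -0.09, neither of them a DEG. Prtn3, the gene of proteinase 3, was the granule gene higher in CX3CR1+ macrophages, at 42.3 and 33.8 CPM against 19.0 and 9.36 CPM (log2 fold change 1.42, SE 0.32, adjusted p = 0.0011). Lyz2, the lysozyme of myeloid cells, was abundant in both populations, at 6485 and 6695 CPM in CX3CR1+ macrophages and 6043 and 3486 CPM in neutrophils, and was not a DEG.

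Some granule products had almost no counts in CX3CR1+ macrophages. Stfa2l1, a stefin-like protease inhibitor, had 0 and 0 counts there and 3138 and 2617 counts in neutrophils, at least 1613-fold higher against a floor of 3 counts per library. Olfm4, an olfactomedin of a subset of specific granules, had 0 and 1 counts against 3655 and 2506 counts. Chil1, a chitinase-like protein, had 0 and 22 counts against 9833 and 6335 counts. Orm1, an acute-phase protein, had 1 and 0 counts against 234 and 109 counts. Amer2, which is not a granule product, had 1 and 1 counts against 3042 and 3197 counts. The floor covers counting error only. Asprv1 had 2 and 14 counts in CX3CR1+ macrophages and 4499 and 3278 in neutrophils. Galnt9 and Ifi213 ran the other way, with 418 and 289 and with 449 and 226 counts in CX3CR1+ macrophages against 9 and 3 and 13 and 3 in neutrophils.

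The S100 genes divided. S100a8 and S100a9 encode the subunits of calprotectin. S100a9 stood at 25628 and 14792 CPM in neutrophils and at 310 and 290 CPM in CX3CR1+ macrophages (log2 fold change -6.07, SE 0.54, adjusted p = 1.3e-07). S100a8 stood at 12578 and 7485 CPM against 316 and 277 CPM. S100a10, the partner of annexin A2, was higher in CX3CR1+ macrophages, at 244 and 254 CPM against 20.4 and 8.84 CPM, a log2 fold change of 4.08. S100a4 had 59 and 61 counts in CX3CR1+ macrophages and 0 and 0 in neutrophils, but 51.7% of its exons are shared with a readthrough gene on the same strand, and its level is uncertain.

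**Figure D2:**
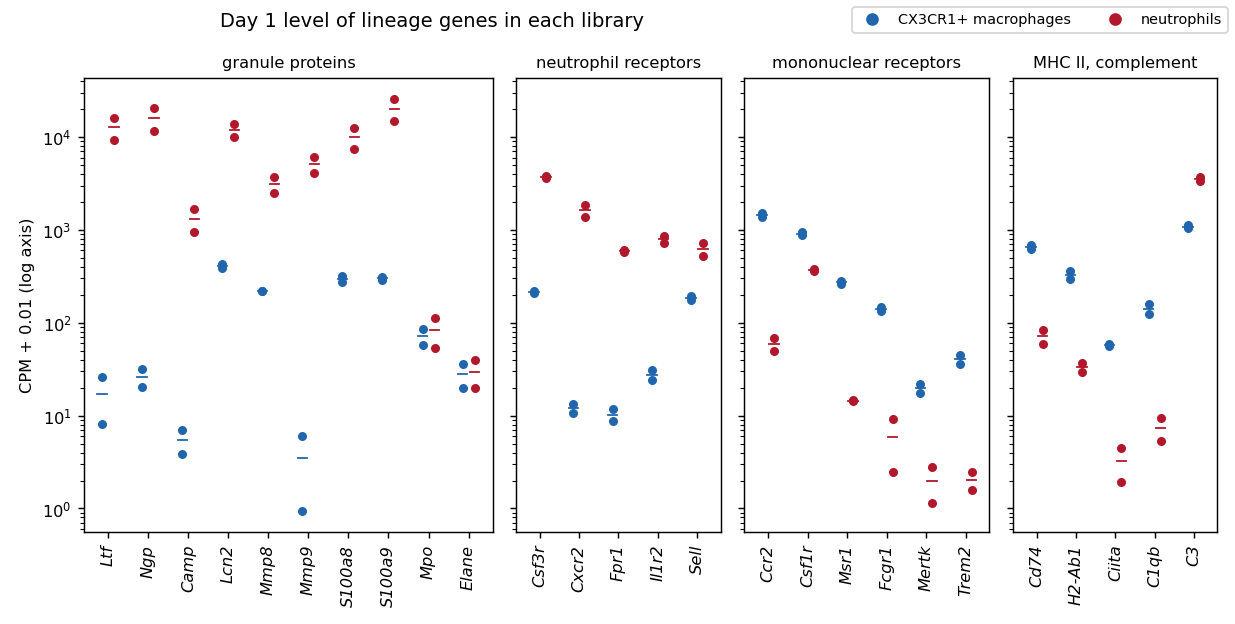
Level in each library on day 1 (CPM + 0.01, log axis) of granule protein genes, neutrophil receptors, receptors of monocytes and macrophages, and genes of MHC class II presentation and complement. Points are libraries (2 per population) and short lines their mean, blue for CX3CR1+ macrophages and red for neutrophils. The populations overlap for Mpo and Elane and stand apart for every other gene drawn.

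Genes listed as neutrophil receptors, which include other proteins such as Pglyrp1, were higher in neutrophils with 1 exception. Of 21 tested, 20 were higher in neutrophils and 1 in CX3CR1+ macrophages, with a median log2 fold change of -3.21. Csf3r, the receptor of G-CSF, stood at 3623 and 3795 CPM in neutrophils and at 209 and 217 CPM in CX3CR1+ macrophages (log2 fold change -4.12, SE 0.17, adjusted p = 7.6e-11). Cxcr2, the receptor of CXCL1 and CXCL2, stood at 1863 and 1392 CPM against 13.4 and 10.6 CPM. Fpr1, a receptor of formylated peptides, stood at 610 and 581 CPM against 8.75 and 11.7 CPM. All 3 separated the populations widely, and their replicates lay close together. Cxcr1 had 0 and 0 counts in CX3CR1+ macrophages and 124 and 130 in neutrophils, at least 71.2-fold higher. The exception was Itga4, the alpha chain of the integrin VLA-4, at 657 and 670 CPM in CX3CR1+ macrophages and 138 and 107 CPM in neutrophils (log2 fold change 2.44, SE 0.13, adjusted p = 8.1e-10). Siglecf, listed among the eosinophil markers, stood at 44.6 and 40.6 CPM in neutrophils and at 0.963 and 2.24 CPM in CX3CR1+ macrophages. Epx and Prg2, which encode eosinophil granule proteins, ran the other way, with 8 and 2 and with 11 and 33 counts in neutrophils. In CX3CR1+ macrophages Epx had 164 and 233 counts and Prg2 181 and 601.

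Receptors and other marker genes of monocytes and macrophages were mostly higher in CX3CR1+ macrophages. Of 24 tested, 14 were higher there, 2 were higher in neutrophils and 8 were not DEGs, with a median log2 fold change of 1.5. Ccr2, the receptor that brings monocytes to CCL2 (chromosome 9, 124101950 to 124113557), stood at 1364 and 1520 CPM in CX3CR1+ macrophages and at 69.3 and 49.7 CPM in neutrophils. Its log2 fold change was 4.60 (SE 0.25, adjusted p = 9.7e-10). Fcgr1, the high-affinity IgG receptor, stood at 135 and 149 CPM against 9.27 and 2.45 CPM, a log2 fold change of 4.57. Msr1, a scavenger receptor, stood at 261 and 284 CPM against 14.6 and 14.4 CPM. Both were clear of overlap. Trem2 and Mertk, receptors of lipids and of dying cells, were higher by log2 fold changes of 4.31 and 3.31. Csf1r, the receptor of M-CSF and a defining gene of the lineage, differed less, at 878 and 947 CPM against 364 and 381 CPM (log2 fold change 1.29). Cd14, the LPS co-receptor, was higher in neutrophils, at 2023 and 2407 CPM against 283 and 337 CPM (log2 fold change -2.84). Emilin2, an extracellular matrix glycoprotein, was the other gene of the list higher in neutrophils, at 1680.1 and 1959.8 CPM against 861 and 945 CPM (log2 fold change -1.01). This value lay at the threshold, and Emilin2 was no DEG in several other settings. Among these were scaling by library size alone (-0.44) and upper quartile factors (-0.74). The value was also under the threshold without the first CX3CR1+ library (-0.89) or the second neutrophil library (-0.90). F10, which encodes coagulation factor X, was at 235 and 294 CPM in CX3CR1+ macrophages and 258 and 310 CPM in neutrophils, which overlapped. Thus Ccr2, Msr1 and Fcgr1 set CX3CR1+ macrophages apart from neutrophils on day 1, whereas Cd14, Emilin2 and F10 were not higher there. Fcgr1 was not particular to CX3CR1+ macrophages, since it averaged 139 CPM in CD9+ macrophages of day 1 and 142 CPM in CX3CR1+ macrophages.

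The 12 genes with the largest folds on this side, beyond Ccr2 and Fcgr1, were Ms4a6b, Ms4a4c, Ms4a4a and Ms4a6c of the MS4A family of membrane proteins, Ly86, Slc8a1, Ptpro, Pld4, Cdc42bpb and Vcan. Ms4a6b stood at 138 and 144 CPM in CX3CR1+ macrophages and at 4.93 and 3.59 CPM in neutrophils (log2 fold change 5.03, SE 0.20, adjusted p = 5.6e-11). Vcan, which encodes the matrix proteoglycan versican, stood at 1660 and 1902 CPM against 81.4 and 63.2 CPM. Pld4, an exonuclease of endolysosomes, stood at 527 and 499 CPM against 22.1 and 18.5 CPM. The log2 fold changes of the 12 genes lay between 4.56 and 5.03. The MS4A genes resemble each other, and 53.1% of the exons of Ms4a6c overlap a gene on the opposite strand, so their reads may be split. Ighg1, an immunoglobulin constant region, was a DEG from a single library, with 0 and 1792 counts in CX3CR1+ macrophages and 0 and 0 in neutrophils, and the populations overlap at 0.

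On the neutrophil side the 12 genes with the largest folds included, beside granule products and the glucose transporter Slc2a3, enzymes and regulators of metabolism. Retnlg, a resistin-like peptide, stood at 2787 and 1698 CPM in neutrophils and at 0.394 and 1.61 CPM in CX3CR1+ macrophages (log2 fold change -11.17, SE 0.42, adjusted p = 4.6e-11). G0s2, an inhibitor of the lipase ATGL, stood at 573 and 546 CPM against 1.23 and 0.938 CPM. Hdc, which makes histamine, stood at 1144 and 1383 CPM against 3.63 and 4.06 CPM. Acod1, which makes itaconate, stood at 928 and 1737 CPM against 4.77 and 8.86 CPM. The populations were separated by more than the spread between pools for each. Itgb2l, Cmah and Mirt2 completed the 12, and Mirt2 is annotated more than once at the same place.

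Genes of MHC class II presentation were higher in CX3CR1+ macrophages. Of 13 tested, 10 were higher there and 1 in neutrophils, with a median log2 fold change of 3.31. Cd74, the invariant chain, stood at 694 and 623 CPM in CX3CR1+ macrophages and at 84.5 and 59.6 CPM in neutrophils (log2 fold change 3.19, SE 0.17, adjusted p = 8.8e-10). H2-Ab1, a class II chain, stood at 361 and 296 CPM against 36.8 and 29.6 CPM. Ciita, the transactivator of the class II genes, stood at 58.9 and 55.7 CPM against 4.48 and 1.92 CPM. The populations did not overlap for these genes. The class II chains that were not DEGs were H2-DMb2, at 1.71 and 1.56 CPM against 3.14 and 3.15 CPM (log2 fold change -0.94), and H2-Oa, at 1.49 and 0.417 CPM against 0.747 and 0.700 CPM, which overlapped. The co-stimulatory ligands of CD28 parted, since Cd86 was higher in CX3CR1+ macrophages (log2 fold change 2.14) and Cd80 in neutrophils (log2 fold change -2.14, at 72.5 and 106 CPM against 18.5 and 21.9 CPM). Cd40, the receptor of CD40 ligand, had 293 and 220 counts in CX3CR1+ macrophages and 5 and 1 in neutrophils. In marker genes of dendritic cells, which also present on class II, the summed level was 17.9 and 15.2 CPM in CX3CR1+ macrophages and 3.36 and 1.66 CPM in neutrophils. Of 6 such markers tested, 3 were DEGs higher in CX3CR1+ macrophages and 0 in neutrophils. The former were Flt3, Cd209a and Batf3 (log2 fold changes 3.92, 3.44 and 3.34), and Flt3 is also listed among the progenitor markers. The other 3, Clec9a (-1.58), Zbtb46 (-0.80) and Siglech (-4.22), had negative values and were not DEGs. Ccr7 had 0 counts in both populations, and Siglech had 0 in both libraries of CX3CR1+ macrophages. The part of such cells in the class II values was not tested.

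Of 9 complement genes tested, 6 were higher in CX3CR1+ macrophages and 2 in neutrophils, with a median log2 fold change of 3.64. C1qb, a chain of the recognition protein C1q, stood at 158 and 124 CPM in CX3CR1+ macrophages and at 9.42 and 5.34 CPM in neutrophils (log2 fold change 4.24, SE 0.46, adjusted p = 9.0e-07). C3, the central component, ran the other way, at 3681 and 3382 CPM in neutrophils and 1056 and 1116 CPM in CX3CR1+ macrophages (log2 fold change -1.70). The anaphylatoxin receptors were split as well, with C3ar1 higher in CX3CR1+ macrophages (log2 fold change 3.74) and C5ar2 in neutrophils (log2 fold change -2.23).

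Of 31 genes of lysosomal hydrolases and their proton pump, 13 were higher in CX3CR1+ macrophages, 2 were higher in neutrophils and 16 were not DEGs, with a median log2 fold change of 0.54. Ctss, a cathepsin that trims the invariant chain, stood at 1786 and 1771 CPM in CX3CR1+ macrophages and at 226 and 139 CPM in neutrophils (log2 fold change 3.28, SE 0.25, adjusted p = 2.2e-08). Ctsc, which activates granule proteases, stood at 1048 and 1083 CPM against 118 and 105 CPM. Lgmn, the asparaginyl endopeptidase legumain, was higher by a log2 fold change of 3.63. Of the proton pump subunits, Atp6v1a (log2 fold change -0.22), Atp6v1b2 (0.01) and Atp6v0d1 (-0.54) were not DEGs, and Atp6v0d2 was higher in neutrophils (-3.48). Atp6v0d2 had only 14 and 7 counts in CX3CR1+ macrophages and 63 and 75 in neutrophils, and was no DEG with DESeq2 (-3.56). The other gene higher in neutrophils was Ctsd, a cathepsin, by -1.03, but 34.4% of its exons are shared with a readthrough gene, and it was no DEG with scaling by library size alone (-0.46), with upper quartile factors (-0.75), or without the first CX3CR1+ library (-0.91) or the first neutrophil library (-0.93).

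Transcription factors of myeloid cells divided between the populations, with 10 of 22 higher in CX3CR1+ macrophages, 6 higher in neutrophils and a median log2 fold change of 0.55. Over all tested genes the shares were 26.9% and 24.1%. Irf8, which favours monocytes over granulocytes, stood at 206 and 188 CPM in CX3CR1+ macrophages and at 12.3 and 10.1 CPM in neutrophils. Klf4, needed for inflammatory monocytes, stood at 412 and 426 CPM against 32.0 and 36.1 CPM. Cebpe, the factor of terminal granulocyte differentiation, was at 4.33 and 4.27 CPM in CX3CR1+ macrophages and 109 and 63.6 CPM in neutrophils (log2 fold change -4.32, SE 0.33, adjusted p = 2.3e-08). Gfi1, a repressor needed for neutrophils, was higher in neutrophils by a log2 fold change of -4.24, at only 8.89 and 7.52 CPM. Spi1, which encodes PU.1 and is shared by both lineages, was at 291 and 282 CPM against 647 and 603 CPM (log2 fold change -1.12), and was no DEG with scaling by library size alone (-0.55). Cebpb, a factor of emergency granulopoiesis, was at 142 and 85.7 CPM against 214 and 2493 CPM. The neutrophil libraries differed more from each other for Cebpb than the lower of them did from CX3CR1+ macrophages, and the log2 fold change of -3.57 rests on the second library, without which it was -0.90 and not a DEG.

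In the interleukin-1 axis, 8 of 12 genes were higher in neutrophils and 1 in CX3CR1+ macrophages, with a median log2 fold change of -3.14. Il1b (chromosome 2, 129364570 to 129371139) stood at 4348 and 6146 CPM in neutrophils and at 417 and 478 CPM in CX3CR1+ macrophages, a log2 fold change of -3.55 (SE 0.19, adjusted p = 9.1e-10). Il1a, the membrane-bound ligand, stood at 202 and 540 CPM against 4.29 and 12.4 CPM. Il1rn, the receptor antagonist, stood at 1523 and 2535 CPM against 70.1 and 86.8 CPM. Agonists and antagonist therefore ran together. The decoy receptor Il1r2 was at 713 and 869 CPM in neutrophils and 30.6 and 24.4 CPM in CX3CR1+ macrophages, again in the same direction. Nlrp3, the inflammasome sensor, was higher in neutrophils by a log2 fold change of -2.77. Pycard, the adaptor of the inflammasome, was higher in CX3CR1+ macrophages by 1.34, and Casp1, its protease, had a log2 fold change of 0.99, just under the threshold.

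Of 17 chemokine ligands, 7 were higher in CX3CR1+ macrophages and 5 in neutrophils, with a median log2 fold change of 1.69. Cxcl2, a ligand of CXCR2, stood at 6760 and 12274 CPM in neutrophils and at 312 and 487 CPM in CX3CR1+ macrophages (log2 fold change -4.57, SE 0.36, adjusted p = 3.6e-08). Ccl3, an inflammatory CC chemokine, stood at 1505 and 3027 CPM against 116 and 123 CPM. Cxcl3 and Ccl4 were higher in neutrophils by log2 fold changes of -3.97 and -4.09, and Cxcl1 by -1.75, which fell short of a DEG without the second neutrophil library (-0.77) or the first CX3CR1+ library (-1.14). Ccl2, the ligand of CCR2, ran the other way, at 366 and 484 CPM in CX3CR1+ macrophages and 26.9 and 31.8 CPM in neutrophils (log2 fold change 3.86, SE 0.22, adjusted p = 1.3e-09). Ccl7, another ligand of CCR2, stood at 64.3 and 89.6 CPM against 6.28 and 4.72 CPM, and Ccl9 at 492 and 606 CPM against 49.3 and 52.1 CPM. Of the tested ligands of CXCR2, Cxcl1, Cxcl2 and Cxcl3 were thus higher in neutrophils, whereas Ppbp, which is counted here with the platelet markers, had 76 and 253 counts in CX3CR1+ macrophages and 8 and 15 in neutrophils (log2 fold change 3.12), and was no DEG without the second CX3CR1+ library (1.88) or the first neutrophil library (2.64).

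Of 15 cytokine and growth factor genes, 8 were higher in neutrophils and 5 in CX3CR1+ macrophages, with a median log2 fold change of -1.03. Csf1, which encodes the growth factor M-CSF, stood at 685 and 1188 CPM in neutrophils and at 5.73 and 6.04 CPM in CX3CR1+ macrophages (log2 fold change -7.31, SE 0.27, adjusted p = 4.6e-11). Its receptor Csf1r, given above, was the higher of the pair in CX3CR1+ macrophages. Tnf stood at 450 and 919 CPM in neutrophils against 29.2 and 31.5 CPM. Osm, a cytokine of the IL-6 family, stood at 637 and 619 CPM against 202 and 216 CPM, and Vegfa was higher in neutrophils by a log2 fold change of -2.34. Tgfb1 was higher in CX3CR1+ macrophages, at 307 and 295 CPM against 123 and 174 CPM, with a log2 fold change of 1.02. This value lay at the threshold, and Tgfb1 was no DEG with DESeq2 (0.98) or with RLE factors, another scaling (0.98). Without the first neutrophil library the value was 0.79. Il6 had 66 and 40 counts in CX3CR1+ macrophages and 6 and 0 in neutrophils. In neutrophils the second library was the higher for Il1a, Cxcl2, Ccl3, Csf1 and Tnf, and the first was the higher for 23 of the 24 granule genes.

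**Figure D3:**
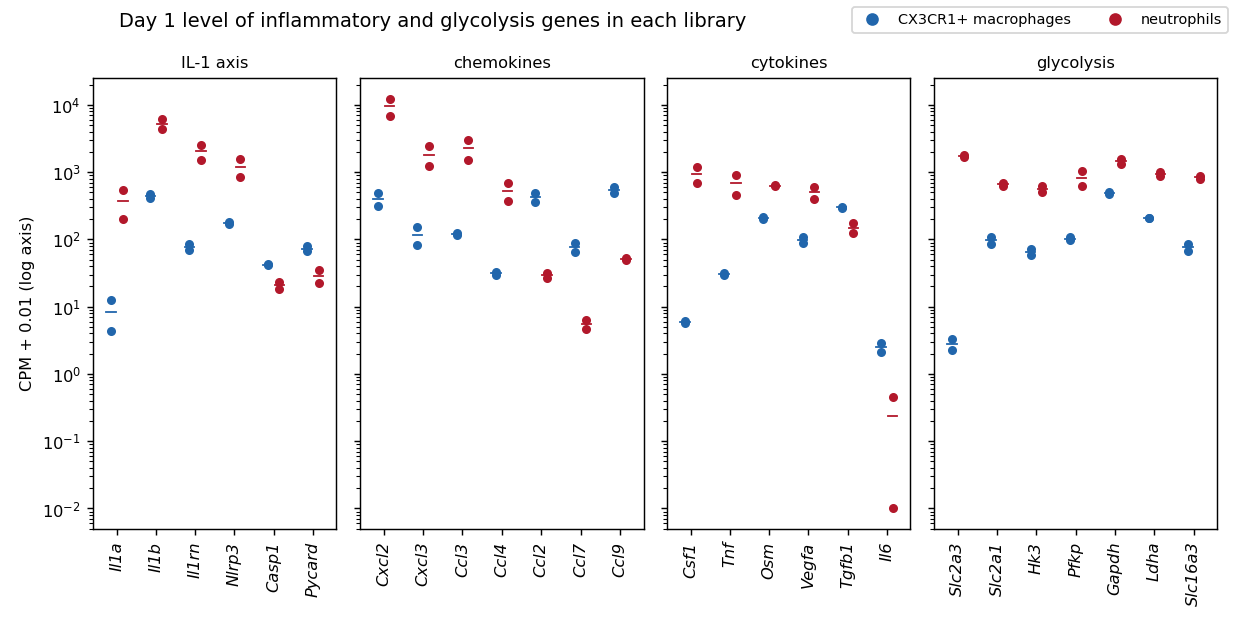
Level in each library on day 1 (CPM + 0.01, log axis) of genes of the IL-1 axis, chemokine ligands, cytokines and glycolysis. Points are libraries (2 per population) and short lines their mean, blue for CX3CR1+ macrophages and red for neutrophils. Neutrophils are higher for Il1b, Cxcl2, Ccl3, Csf1 and all glycolysis genes drawn, and CX3CR1+ macrophages for Ccl2, Ccl7, Ccl9, Pycard and Tgfb1.

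Genes of glycolysis were the most uniform group on the neutrophil side. All 19 tested were higher in neutrophils, with log2 fold changes from -9.30 to -1.36 and a median of -2.35, and 17 remained DEGs with scaling by library size alone. Slc2a3, the high-affinity glucose transporter GLUT3 (chromosome 6, 122727809 to 122801640), stood at 1790 and 1701 CPM in neutrophils and at 2.23 and 3.33 CPM in CX3CR1+ macrophages. Its log2 fold change was -9.30 (SE 0.30, adjusted p = 1.1e-11). Slc2a1, the transporter GLUT1, stood at 619 and 702 CPM against 86.8 and 110 CPM. CX3CR1+ macrophages thus had GLUT1 with little GLUT3. Hk3, a hexokinase, stood at 619 and 515 CPM against 72.1 and 58.6 CPM. Pgk1, whose promoter is shown above, stood at 242 and 216 CPM against 78.1 and 75.1 CPM, and Hk2, shown beside it, was higher in neutrophils by a log2 fold change of -2.35. Slc16a3, a lactate exporter, was higher by -3.45. Eno1, an enolase, and Gapdh differed least, by -1.36 and -1.56.

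Of 74 cytosolic ribosomal protein genes, 66 were higher in CX3CR1+ macrophages and 0 in neutrophils, with a median log2 fold change of 1.85. The 8 that were not DEGs included Fau (log2 fold change -0.38) and Rps27 (0.15). Rplp0, a protein of the ribosomal stalk, stood at 857 and 793 CPM in CX3CR1+ macrophages and at 240 and 166 CPM in neutrophils (log2 fold change 2.02, SE 0.15, adjusted p = 2.1e-08). Rpl10a had the largest difference of the list, 3.47. Many ribosomal protein genes have near-identical pseudogenes, and their counts are uncertain for this reason. Of 77 nuclear genes of respiratory chain subunits, 27 were higher in CX3CR1+ macrophages, 1 was higher in neutrophils and 49 were not DEGs, beside 26.9% of all tested genes higher in CX3CR1+ macrophages. Their median log2 fold change was 0.78, and scaling by library size alone raised the former to 53. The ribosomal genes were lower in the second neutrophil library than in the first for 72 of the 74.

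Of 25 cell cycle genes, 22 were higher in CX3CR1+ macrophages and 0 in neutrophils, with a median log2 fold change of 1.62. Mki67 stood at 1577 and 1656 CPM in CX3CR1+ macrophages and at 685 and 492 CPM in neutrophils (log2 fold change 1.46, SE 0.21, adjusted p = 2.2e-05). Top2a, a topoisomerase of dividing cells, stood at 530 and 518 CPM against 208 and 134 CPM. Mcm3, a subunit of the replicative helicase, stood at 123 and 133 CPM against 34.2 and 19.2 CPM. The genes of the list that were not DEGs were Hmgb2 (log2 fold change -0.46), Pcna (0.80) and Rrm2 (0.98). In bulk libraries fewer cells with a gene and less RNA per cell cannot be told apart.

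Other effector genes of phagocytes were mostly higher in neutrophils. Of 7 genes of the phagocyte NADPH oxidase, 4 were higher in neutrophils and 0 in CX3CR1+ macrophages, led by Ncf1, the p47 subunit, at 2579 and 2043 CPM against 318 and 332 CPM (log2 fold change -2.83). The membrane subunit Cybb had a log2 fold change of -0.89 and was not a DEG. Of 12 lipid mediator enzymes, 7 were higher in neutrophils and 2 in CX3CR1+ macrophages. Alox5, which starts leukotriene synthesis, stood at 604 and 503 CPM against 15.1 and 15 CPM (log2 fold change -5.20, SE 0.23, adjusted p = 1.3e-10). Ptgs2, the inducible cyclooxygenase, was higher in neutrophils by -2.85. Hpgd, which breaks prostaglandins down, was higher in CX3CR1+ macrophages by 3.34. Hpgds, a synthase of prostaglandin D, was the other gene higher in CX3CR1+ macrophages, by 1.75.

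Of 9 genes of iron and heme, 5 were higher in neutrophils and 1 in CX3CR1+ macrophages. Slc40a1, the iron exporter ferroportin, is known from macrophages, yet it stood at 157 and 130 CPM in neutrophils and at 0.219 and 1.41 CPM in CX3CR1+ macrophages (log2 fold change -7.52, SE 0.38, adjusted p = 4.7e-10). Fth1, the heavy chain of ferritin, stood at 4873 and 7608 CPM against 1853 and 1750 CPM. Of 16 genes of lipid handling, 3 were higher in CX3CR1+ macrophages and 2 in neutrophils, beside 26.9% and 24.1% of all tested genes. Their median log2 fold change was 0.05. Apoe, the lipoprotein of macrophages, stood at 1600 and 1310 CPM in CX3CR1+ macrophages and 143 and 104 CPM in neutrophils (log2 fold change 3.56), and Lpl, a lipoprotein lipase, was higher by 3.88.

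Sensors and signals of innate immunity were mixed. Of 17 genes of Toll-like receptor signalling, 5 were higher in CX3CR1+ macrophages and 7 in neutrophils. Of the receptors of nucleic acids, Tlr7, Tlr8 and Tlr9 were higher in CX3CR1+ macrophages by log2 fold changes of 1.62, 1.44 and 2.95, and Tlr3 had 80 and 23 counts there and 0 and 0 in neutrophils, while Tlr13 was higher in neutrophils (-1.45). Of the receptors of bacterial products, Tlr2, Tlr4, Tlr5 and Tlr6 were higher in neutrophils by -1.13, -1.39, -1.35 and -1.56, and Tlr1 in CX3CR1+ macrophages by 1.52. The kinases Irak2 and Irak3 were higher in neutrophils by -2.62 and -2.75. With scaling by library size alone the list kept 2 genes higher in neutrophils and its median turned from -0.46 to 0.11. Of 9 interferon-stimulated genes, 4 were higher in neutrophils, of which library size scaling kept 1, and 1 in CX3CR1+ macrophages. The latter was Mx1, an antiviral GTPase, at 46.8 and 39.4 CPM against 2.54 and 1.22 CPM (log2 fold change 4.49, SE 0.35, adjusted p = 2.8e-08). Of 6 genes of Fc gamma receptors and their signalling, 1 was higher in CX3CR1+ macrophages, the inhibitory Fcgr2b (log2 fold change 1.46), and 3 in neutrophils, among them the activating Fcgr3 (-1.40, no DEG with scaling by library size alone, -0.83) and Fcgr4 (-2.05). Of 12 BCL2 family genes, 3 were higher in CX3CR1+ macrophages and 4 in neutrophils, beside 26.9% and 24.1% of all tested genes. The survival genes Mcl1 and Bcl2l1 were higher in neutrophils by -1.64 and -3.09, and Bcl2 in CX3CR1+ macrophages by 1.28, which was no DEG without the second CX3CR1+ library (0.94) or the second neutrophil library (1.149).

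**Figure D4:**
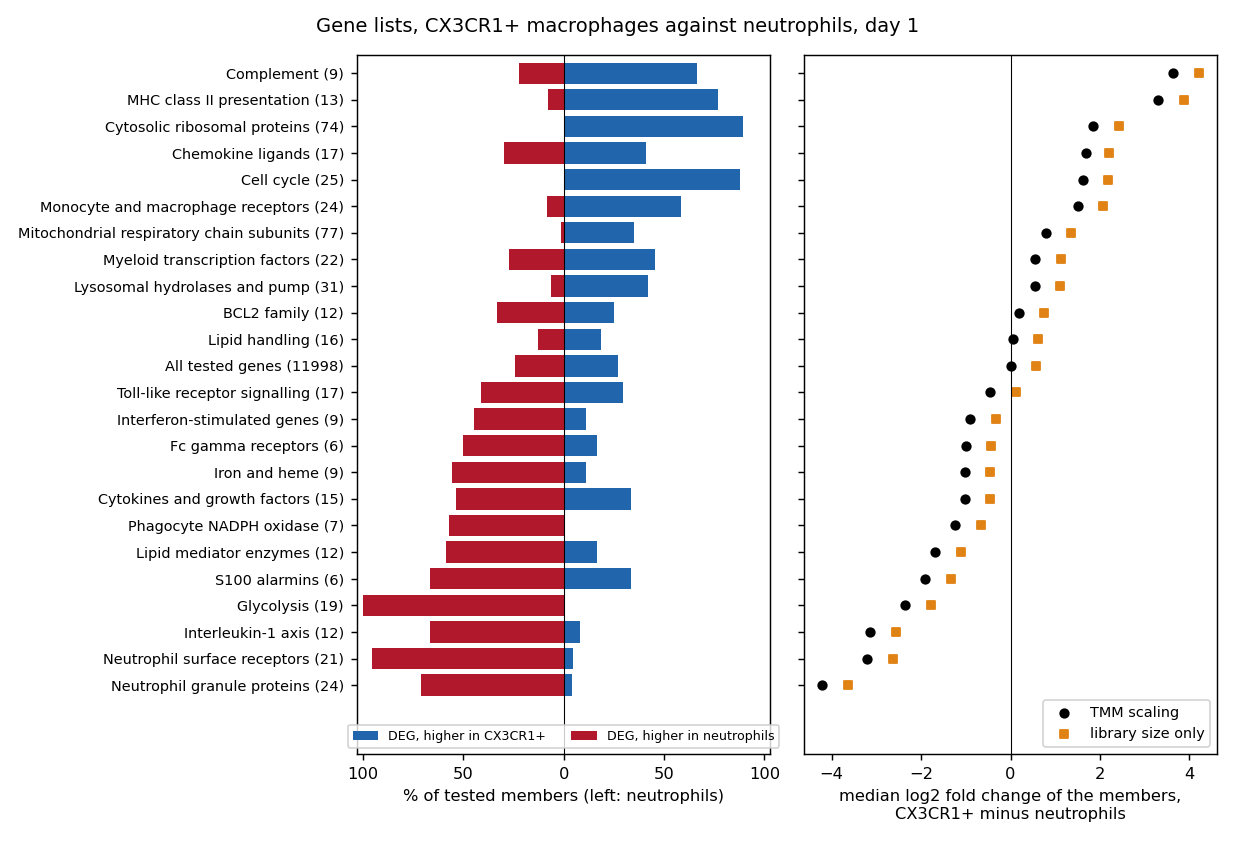
Gene lists ordered by their median log2 fold change, with the number of tested members in brackets. The left panel gives the share of members that were DEGs (%, blue to the right for those higher in CX3CR1+ macrophages, red to the left for those higher in neutrophils), and the right panel the median under TMM scaling (circles) and under library size alone (squares). Glycolysis is red throughout and ribosomal proteins and cell cycle have no red, while the Toll-like receptor list turns sign with the scaling.

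Marker genes of other cells are given by their summed levels, with Ighg1, given above at 1792 counts in the second CX3CR1+ library, not among them. The summed CPM of 5 marker genes of mast cells and basophils was 0.0438 to 0.886 in CX3CR1+ macrophages and 5.34 to 7.47 in neutrophils. The summed CPM of 7 stromal and bone markers was 1.30 to 1.75 in CX3CR1+ macrophages and 10.8 to 53.7 in neutrophils, the highest value being that of the first neutrophil library with 412 counts of Col1a1. That of B and plasma cell markers was 19.0 to 19.3 in CX3CR1+ macrophages and 2.89 to 4.26 in neutrophils, most of the former being Jchain and Cd79b, with Pax5 at 0 counts in both libraries of CX3CR1+ macrophages. That of eosinophil markers was 34.4 in the first and 76.8 in the second library of CX3CR1+ macrophages, where Prg2 stood at 7.92 and 31.3 CPM, and 66.8 to 70.9 in neutrophils. For T and NK cells it was 0.569 to 5.08, for endothelial cells 0.35 to 4.42, for erythroid cells 4.69 to 14.9, for platelets and megakaryocytes 4.11 to 14.3, and for stem and progenitor cells 18.6 to 27.5 over the 4 libraries. Ppbp was the platelet marker higher in CX3CR1+ macrophages, while Itga2b and Clec1b were higher in neutrophils. Stem and progenitor markers also ran both ways, with 3 of 7 tested higher in CX3CR1+ macrophages and 2, Kit and Hlf, higher in neutrophils. Kit, the gene of the excluded c-kit, stood at 17.6 and 15.1 CPM in neutrophils against 1.14 and 0.313 CPM. The part of other cells in the results above was not tested.

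The same populations were sorted on day 14 from other mice, which gave independent libraries. Of the 3227 genes higher in CX3CR1+ macrophages on day 1, 3199 had the same sign on day 14, 2547 were DEGs of that sign and 1 was a DEG of the opposite sign. Of the 2886 genes higher in neutrophils, 2690 had the same sign, 2063 were DEGs of that sign and 42 were DEGs of the opposite sign. The share of all tested genes called on day 14 is not given here, so these counts are a description only. The difference itself changed between days for 1091 genes (9.09%), with 215 higher and 876 lower on day 1. Among DEGs higher in CX3CR1+ macrophages, the difference was smaller on day 1 for 285 and larger for 63. Among DEGs higher in neutrophils, it was larger on day 1 for 322 and smaller for 89. Both sets were chosen by day 1 values, which also enter the change, so the choice favours a larger difference on day 1. Beside this, neutrophils held a median of 3.93% of the CX3CR1+ level for the 12 leading genes of CX3CR1+ macrophages on day 1 and of 1.09% on day 14, and the part of this level in the change was not tested.

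Ccr2, for example, stood at 1422 and 1525 CPM in CX3CR1+ macrophages of day 14, close to day 1, but at 16 and 7.69 CPM in neutrophils. Ccl3 stood at 65.9 and 59.3 CPM in neutrophils and 220 and 156 CPM in CX3CR1+ macrophages of day 14, so the order of the populations was turned. Csf1 had fallen to 56.4 and 57.1 CPM in neutrophils and was 4.08 and 6.29 CPM in CX3CR1+ macrophages. F10 stood at 186 and 175 CPM in CX3CR1+ macrophages and 11.8 and 7.49 CPM in neutrophils, where the populations of day 1 had overlapped. Conversely Lrg1, which encodes a secreted glycoprotein of neutrophils, was at 59.2 and 47.2 CPM in CX3CR1+ macrophages on day 1 and at 1.13 and 0.740 CPM on day 14, while neutrophils stood at 624 and 468 CPM and at 443 and 402 CPM. S100a8 was at 316 and 277 CPM in CX3CR1+ macrophages on day 1 and at 22.3 and 39.7 CPM on day 14. Day 1 CX3CR1+ macrophages therefore carried Lrg1 and S100a8 at levels that those of day 14 did not, whereas for Ltf the day 14 levels of 26.6 and 61.1 CPM were not lower. For the 12 leading genes of neutrophils, CX3CR1+ macrophages held a median of 0.187% of the neutrophil level on day 1 and of 0.258% on day 14. These 12 genes were chosen by their day 1 folds, which favours a low share on day 1. The medians therefore cannot tell whether the share changed between days.

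**Figure D5:**
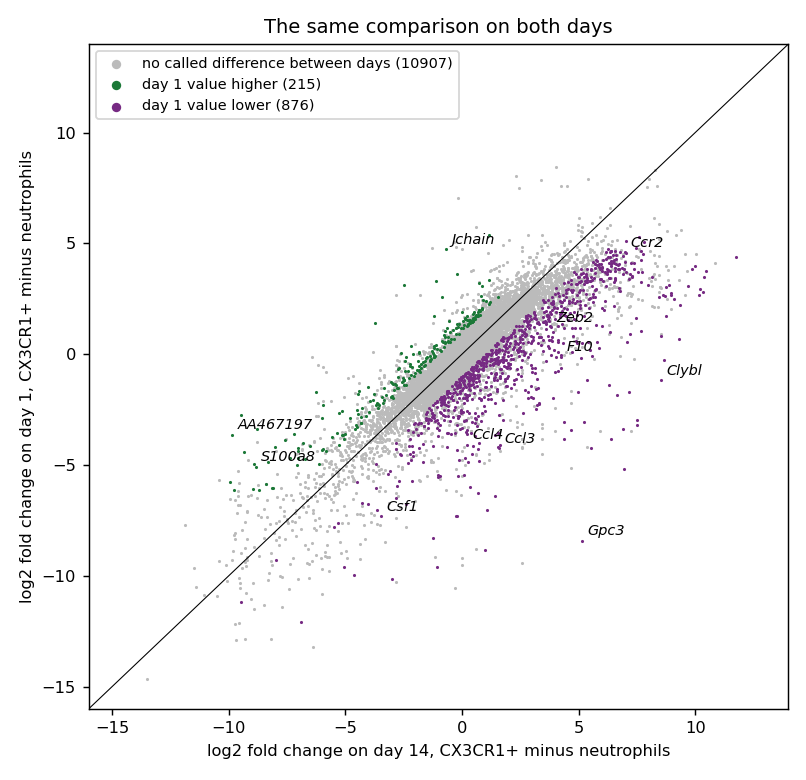
Log2 fold change of CX3CR1+ macrophages minus neutrophils on day 1 (vertical axis) against day 14 (horizontal axis), 1 point for each of 11998 genes, with the line of equal values. Green points are the 215 genes with a higher value on day 1 and purple points the 876 with a lower value (edgeR interaction). Most genes lie near the line, and Ccl3, Ccl4, F10, Gpc3 and Clybl lie far below it.

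The other populations of day 1 are set beside the comparison as levels only, since any comparison of them with neutrophils shares its control libraries. Ltf averaged 2810 CPM in CD9+ macrophages and 8929 CPM in F4/80- myeloid cells, against 16.9 ± 12.5 CPM (SD, n = 2) in CX3CR1+ macrophages and 12760 ± 4772 CPM (SD, n = 2) in neutrophils. Ccr2 averaged 635 and 303 CPM in CD9+ macrophages and F4/80- cells, against 1442 ± 110 CPM (SD, n = 2) in CX3CR1+ macrophages and 59.5 ± 13.9 CPM (SD, n = 2) in neutrophils. Il1b averaged 437 and 75.2 CPM there, against 448 ± 43.2 CPM (SD, n = 2) in CX3CR1+ macrophages and 5247 ± 1271 CPM (SD, n = 2) in neutrophils. CX3CR1+ macrophages thus had the lowest Ltf and the highest Ccr2 of the 4 populations.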

How the data were processed

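The authors deposited a table of raw counts per gene for 16 libraries and 20200 genes. According to their methods, reads of stranded SMART-Seq libraries were aligned to mm10 with STAR and counted over Gencode exons. The strand setting of the counting is not given in the sources used here. The lowest total count of a gene was 17, so very low genes had been removed.

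The 11998 genes whose mean reached 3 CPM in any of the 8 groups entered the test. Libraries were scaled with TMM factors, and the model was fitted with edgeR 4.0.16 in R 4.3.3 (quasi-likelihood, 1 mean per group over the 16 libraries, Benjamini-Hochberg adjustment). DESeq2 1.42.0 was an alternative. The change between days is the interaction of population and day. Counting intervals and floors cover counting error only, since reads carried no molecular identifiers. Since 2 pools per population give too few degrees of freedom alone, the spread between pools behind the p values was estimated over the 16 libraries of all 8 groups. It is thus shared with groups outside the comparison, and is not the spread of the compared pools alone.

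Genes outside the lists were named by rule. The 12 with the largest folds on each side had over 3 counts in each library, a mean of at least 100 CPM in the higher population and no overlap. A further 5 per side were the highest of those with 3 counts or fewer in a library of the lower population, and 6 per direction had the largest change between days. Predicted genes and genes on Y were left out. The libraries compared, the gene lists and the motifs were chosen with earlier results of these data known. Promoter windows were RefSeq sequences of GRCm38.p6, the build also called mm10.

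A few genes of the lists are not reported here by name.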

Additional observations from a re-analysis of the deposited data

Results flagged for a closer look

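The difference between CX3CR1+ macrophages and neutrophils was tested for a change between days, and 1091 genes were called (edgeR interaction). Each value here is the log2 fold change of day 1 minus that of day 14.

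Toward CX3CR1+ macrophages on day 1, the largest changes were those of Plscr2 (6.74), AA467197 (6.21), Ppbp (5.61), Lrg1 (5.44), Jchain (5.42) and Wfdc21 (4.90). Plscr2 and Ppbp had 2 and 9 and 76 and 253 counts in CX3CR1+ macrophages of day 1. Plscr2 was not called with the replicate block (6.53), and neither gene was called without the second CX3CR1+ library (5.22 and 4.34), the first neutrophil library (6.75 and 5.12) or the second neutrophil library (6.74 and 6.25). For Lrg1 and Wfdc21 the CX3CR1+ level was higher on day 1, with Wfdc21 at 22.6 and 20.0 CPM on day 1 and 1.04 and 0.833 CPM on day 14. AA467197 stood at 2.71 and 6.09 CPM in CX3CR1+ macrophages on day 1 and at 0 and 0.0925 CPM on day 14. For Jchain both levels differed, with neutrophils at 0.0747 and 1.05 CPM on day 1 and 10.2 and 10.3 CPM on day 14. In CX3CR1+ macrophages Jchain stood at 13.7 and 15.1 CPM on day 1 and at 7.12 and 5.64 CPM on day 14. S100a8 changed by 3.75.

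Toward neutrophils on day 1, the largest changes were those of Gpc3 (-13.57), Pdzd4 (-12.12), Adgra2 (-10.47), Jam2 (-9.82), Alox8 (-9.74) and Clybl (-9.69). Gpc3, which encodes the membrane proteoglycan glypican 3, had 1318 and 832 counts in neutrophils on day 1 and was at 0 CPM in both libraries of day 14. Clybl stood at 9.42 and 8.49 CPM in neutrophils on day 1 and at 0 CPM in both libraries of day 14. Pdzd4 and Adgra2 had counts in the first neutrophil library of day 1 (8 and 26) and 0 in the second, and Alox8 had 2 and 2 counts, so these values rest on few reads. Without the first neutrophil library Pdzd4 (-6.96) and Adgra2 (-3.68) were not called. Alox8 lost its call when any of the 4 libraries was left out. Fitted values of genes with groups at 0 depend on the prior count and are no bounds. Among abundant genes, Ccl3 changed by -5.83, F10 by -4.34, Csf1 by -3.86 and Ccr2 by -2.38.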

How the results depend on the processing

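Of 6113 DEGs, the count fell to 3106 when each of the 8 groups had to reach the minimum CPM, a construction that leaves out genes absent from a population, with 1714 higher in CX3CR1+ macrophages, 1392 higher in neutrophils and 653 genes changed between days. Library size alone left 1758 higher in neutrophils, and glmTreat left 639 changed between days. DESeq2 gave 6167 DEGs. Leaving out each library in turn, which leaves 1 library assumed to vary like the other groups, gave 5505 to 6126 DEGs, 2842 to 3273 higher in CX3CR1+ macrophages, 2571 to 2853 higher in neutrophils and 806 to 1281 changed between days. The log2 fold change of Ighg1 ranged from 0.00 without the second CX3CR1+ library to 13.27 without the first, and that of Adgra2 from -3.935 without the second neutrophil library to 3.81 without the first. Of the gene values, 2407 kept direction and call, 72 lost the call and 36 gained it.

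With the replicate number within each day as a block there were 6081 DEGs (3219 and 2862), 6037 of them shared, and 1106 genes changed between days. Deviations of same-numbered libraries correlated at 0.0446, so the numbers are not shown to pair the pools. At this depth genes with a few counts in 1 library were not resolved.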
